A study of Mus musculus with 12 samples.

Results

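The Cyp1 family of cytochromes P450 was represented by 3 mouse genes, Cyp1a1, Cyp1a2 and Cyp1b1, and its members were taken as every probe set annotated to a single one of these genes. This gave 5 of the 45037 probe sets on the array after control probe sets were removed, and 3 of the 18193 genes. Cyp1a1 and Cyp1a2 had 1 probe set each and Cyp1b1 had 3. No Cyp1 probe set shared its annotation with another gene.

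The signals came from 12 Affymetrix arrays of RNA from primary mouse hepatocytes, 3 arrays in each of 4 groups and 1 array per mouse per the design text. In the hAHR TCDD and hAHR DMSO groups the cells came from B6.Cg-Ahrtm3.1Bra mice that also carry Tg (Alb-cre, Ttr-AHR)1Ghp. As these names read, a modified mouse Ahr allele is combined with a Cre recombinase under the albumin promoter and a human AHR transgene under the transthyretin promoter. In the C57BL6/J TCDD and C57BL6/J DMSO groups they came from C57BL6/J mice, labelled wild type. TCDD, a dioxin, was given at 10 nM for 6 h, and controls received the vehicle DMSO (a description of the C57BL6/J controls reads 10 nM DMSO). All groups had first been cultured for 48 h in a medium that itself held DMSO and dexamethasone, so no group was free of DMSO. Age and sex are not given in the labels. The promoters that drive Cre and the human receptor are those of hepatocyte genes, so other cells in a culture need not carry the same receptor.

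The aryl hydrocarbon receptor (AHR) waits in the cytoplasm with chaperones, enters the nucleus when a ligand such as a dioxin binds, pairs with ARNT and binds short DNA elements near its target genes. The Cyp1 genes are its best known targets, and their enzymes oxidise polycyclic aromatic compounds. Cyp1a1 is hardly expressed in unexposed liver, Cyp1a2 is a constitutive liver enzyme that oxidises arylamines and caffeine, and Cyp1b1, which also oxidises oestradiol, is expressed mainly outside hepatocytes.

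The promoter sequences are shown because the receptor binds DNA near its targets. Whether the motifs in them bear on the TCDD responses of the members was not tested. Each is the 250 bases before the annotated start of transcription, from RefSeq on GRCm38.p6, written 5′ to 3′ on the strand of the gene. Capitals mark matches to the core of the AHR response element, GCGTG on either strand (CACGC where it lies on the opposite strand), and to the TATA box motif TATAAA.
Cyp1a1 (chr9:57697363-57697612, plus strand): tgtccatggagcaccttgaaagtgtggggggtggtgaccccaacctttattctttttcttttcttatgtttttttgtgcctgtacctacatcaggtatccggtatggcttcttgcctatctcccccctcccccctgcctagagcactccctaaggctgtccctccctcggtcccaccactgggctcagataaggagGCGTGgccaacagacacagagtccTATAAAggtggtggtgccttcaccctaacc
Cyp1a2 (chr9:57683656-57683905, minus strand): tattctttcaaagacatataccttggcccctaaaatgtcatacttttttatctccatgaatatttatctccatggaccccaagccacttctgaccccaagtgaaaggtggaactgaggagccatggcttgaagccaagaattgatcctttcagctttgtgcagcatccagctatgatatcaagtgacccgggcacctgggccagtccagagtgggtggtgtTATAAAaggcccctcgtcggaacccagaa
Cyp1b1 (chr17:79715062-79715311, minus strand): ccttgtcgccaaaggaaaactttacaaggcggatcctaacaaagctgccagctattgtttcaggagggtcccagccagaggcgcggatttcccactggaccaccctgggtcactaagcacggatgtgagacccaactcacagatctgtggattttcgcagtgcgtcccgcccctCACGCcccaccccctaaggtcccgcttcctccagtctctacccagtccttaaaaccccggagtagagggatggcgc

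The motif search covered both strands of 300-base windows that also held the first 50 transcribed bases, and the motifs did not overlap each other in the Cyp1 windows. In the Cyp1a1 window, GCGTG began at position -54 from the start on the strand of the gene, and TATAAA began at -30. In the Cyp1a2 window, TATAAA began at -29 and GCGTG was not among the letters. In the Cyp1b1 window, GCGTG lay on the opposite strand with its leftmost base at -76, and TATAAA was not among the letters. The extended element TNGCGTG was in none of the 3 windows. Of 32851 promoter windows of this length in the table, 32.4% held GCGTG, 5.1% held TNGCGTG and 13.6% held TATAAA, so the core motif alone is common. The Cyp1b1 window had 16 CpG dinucleotides, the Cyp1a1 window 4 and the Cyp1a2 window 3. Their GC content was 58.3%, 54.0% and 49.7%, against a median of 52.7% over all windows. Cyp1a1 and Cyp1a2 are neighbours on chromosome 9 and are transcribed away from each other, with 13957 bases between the 2 starts. The Cyp1a1 window lies inside the annotated gene, which has a further upstream start that was not used here, and elements farther from the starts lay outside all windows.

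**Figure D1:**
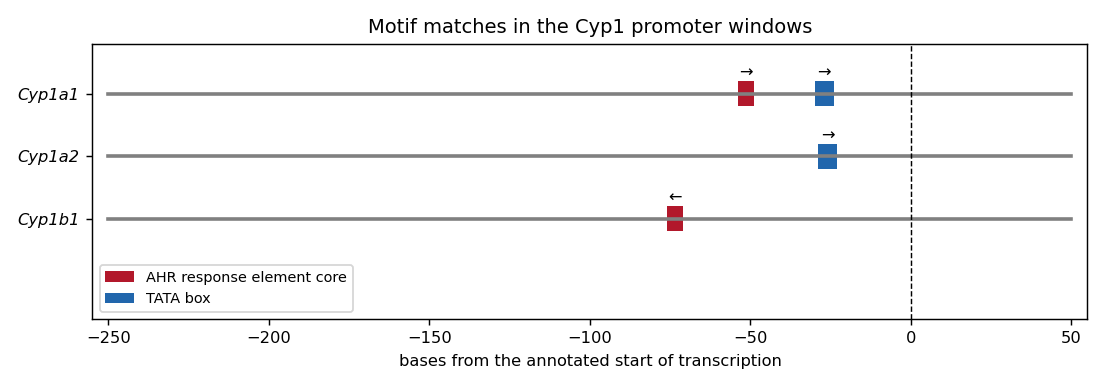
Each line is the 300-base promoter window of a Cyp1 gene, with bases from the annotated start of transcription on the horizontal axis, boxes for motif matches and arrows for their strand relative to the gene. The AHR response element core appears in the Cyp1a1 window at -54 and in the Cyp1b1 window at -76, and the TATA box in the Cyp1a1 and Cyp1a2 windows.

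Signals are given as intensities rescaled so that each array had a 2% trimmed mean of 150, in array units. After this, array medians lay between 16.5 and 23.4. Xist, the transcript made from the inactive X chromosome of female cells, read 2952 in C57BL6/J TCDD replicate 2 and 3085 in C57BL6/J DMSO replicate 2 with its brightest probe set, while the 3 Xist probe sets lay between 0.3 and 29.3 in the other arrays. The Y-linked probe sets of Eif2s3y and Uty that exceeded 50 in all other arrays were at 0.42 to 20.79 in these 2 arrays. These ranges also show how high a probe set can read where its gene is taken to be silent. The labelled cell type was checked by markers. The sum of 10 hepatocyte markers lay between 68910 and 103200 in all arrays, whereas the sum of 5 leukocyte markers reached at most 66.9. The highest sums of the other lists were 4801 for macrophages, 1371 for cholangiocytes, 369.8 for endothelial cells and 305.4 for stellate cells and fibroblasts. Sums over different genes do not give the share of each cell type. In RNA of whole cultures, fewer cells of a type and less RNA per cell cannot be told apart.

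The levels of the 3 genes followed 3 different patterns over the groups. Cyp1a1 was low in every DMSO array and was the gene with the largest TCDD increase on the log2 scale in both genotypes. Cyp1a2 was bright in every hAHR array with or without TCDD, and dimmer in every C57BL6/J array. Cyp1b1 was close to the silent range almost everywhere. A level of one gene's probe set cannot be set against that of another gene's, so the patterns are compared only as changes.

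**Figure D2:**
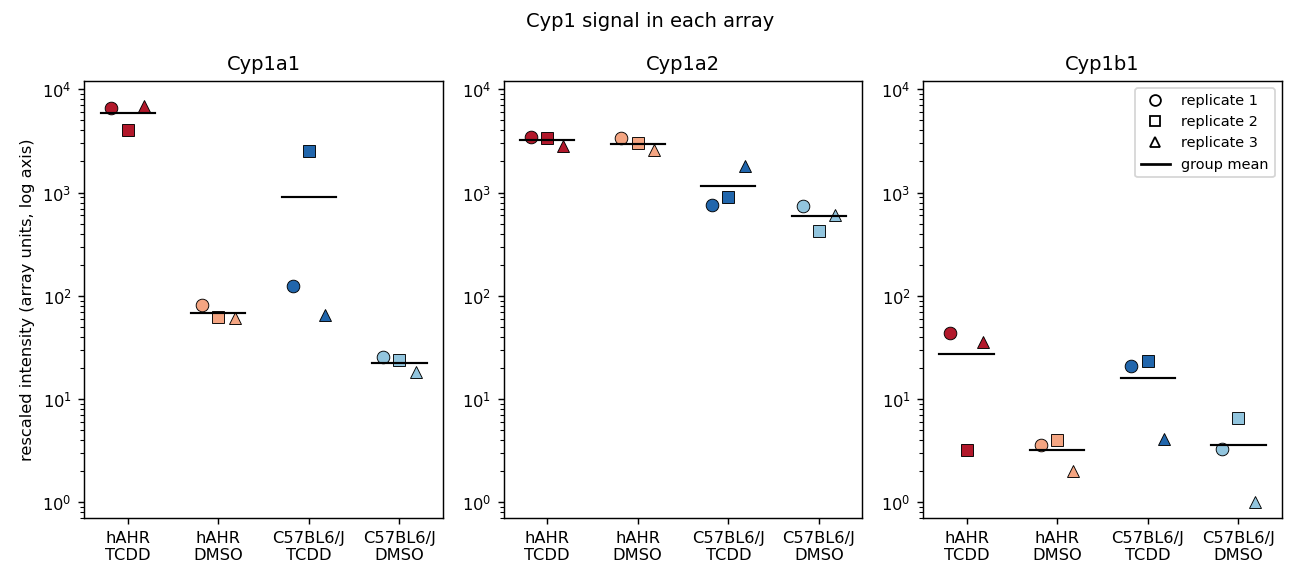
Each panel gives the rescaled intensity of a Cyp1 gene in all 12 arrays on a log axis, by group, with a symbol per replicate number and a bar at the group mean. Cyp1a1 separates TCDD from DMSO arrays in each genotype, Cyp1a2 separates hAHR from C57BL6/J arrays, and Cyp1b1 overlaps between groups.

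Cyp1a1 read 6624, 4004 and 6939 in hAHR TCDD arrays, against 81.9, 63.0 and 60.5 in hAHR DMSO arrays. Every TCDD array lay far above every DMSO array, and the TCDD arrays placed Cyp1a1 between percentiles 98.75 and 99.42 of all probe sets on the array, compared with 66.88 to 70.89 under DMSO. The means were 5856 ± 1611 in hAHR TCDD and 68.5 ± 11.7 in hAHR DMSO arrays (SD, n = 3 each), a ratio of 85.5. The test was made with limma on log2 of the signal plus 16, an offset that keeps low signals from dominating but shrinks their fold changes. On that scale Cyp1a1 rose by 6.09 (standard error 0.87, 95% confidence interval 4.20 to 7.97, limma adjusted p = 0.0427 over all 18193 genes), which is 68.0-fold. It was 1 of 4 genes called at adjusted p under 0.05, which is 0.022% of the genes tested, and the other 3 were Tiparp, Rab30 and B3galnt2. Its groups did not overlap, which held with TCDD higher for 3.35% of genes. The significance analysis of microarrays (SAM), which the design text names, was run over all 20 relabellings of the 6 arrays and called 7 genes at a false discovery rate of 5%, among them Cyp1a1 with the highest statistic of all.

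The call of limma depended on how the spread was estimated, while the size of the change did not. With any 1 array left out, the change stayed between 5.94 and 6.34, but the adjusted p ranged from 3.8e-08 to 0.378 and was under 0.05 in 2 of 12 such fits, those without C57BL6/J TCDD replicate 2 or 3. The spread of C57BL6/J TCDD arrays enters the test because the 4 groups share 1 variance, and from the 6 hAHR arrays alone the adjusted p was 2.03e-06.

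In C57BL6/J cells Cyp1a1 read 124.9, 2518 and 64.9 under TCDD, against 25.3, 24.0 and 18.5 under DMSO. All 3 TCDD arrays were above all 3 DMSO arrays, yet replicate 2 stood more than an order of magnitude above the other TCDD arrays, and the DMSO signals lay inside the range of the silent Xist probe sets. The mean was 903 ± 1399 with TCDD and 22.6 ± 3.61 with DMSO (SD, n = 3 each). The log2 change of 3.00 (95% confidence interval 1.11 to 4.88, limma unadjusted p = 0.00438, adjusted p = 0.966) did not pass the test, although it ranked first by size among all genes. Here limma called 1 gene, Tiparp, or 0.0055% of those tested, and SAM called 0. Complete separation with TCDD higher occurred for 6.18% of genes.

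The C57BL6/J TCDD arrays stood apart as a group. They alone were deposited at a trimmed mean of 500, where the other 9 arrays had 150, and this difference in scaling cannot be told apart from the group in any comparison that uses them. Their correlations with each other, over log2 values of all genes, were 0.958 to 0.976, against 0.979 or more within each other group, and limma's array weights were 3.14, 0.51 and 0.42 for their replicates 1, 2 and 3, with 0.90 to 1.34 for the other arrays. The spread of Cyp1a1 in them was among the largest of all genes. Its SD on the log2 scale was 2.67, the fifth largest of 18193 genes, where the median gene had 0.27. In hAHR TCDD arrays it was 0.44 and in the DMSO groups 0.19 (hAHR) and 0.14 (C57BL6/J). Without C57BL6/J TCDD replicate 2 the change in C57BL6/J cells was 1.47. No ratio to single C57BL6/J DMSO arrays is given, since their Cyp1a1 signals lay in the silent range.

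C57BL6/J TCDD replicate 2 also differed from the other TCDD arrays in further measures. It and C57BL6/J DMSO replicate 2 are the 2 Xist-high arrays. Ahr, which encodes the mouse receptor, read 442.3 in C57BL6/J TCDD replicate 2 and 616.7 in C57BL6/J DMSO replicate 2, and 192.8 to 261.3 in the other 10 arrays. The sources used here do not say whether the Ahr probe set lies in the altered part of the allele of the hAHR strain, and the part of sex or of receptor level in the Cyp1a1 spread was not tested.

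The TCDD effect on Cyp1a1 was larger in hAHR than in C57BL6/J cells by 3.09 on the log2 scale (95% confidence interval 0.43 to 5.75), the largest such difference of all genes, but it did not pass (limma unadjusted p = 0.0261, adjusted p = 0.999). Limma called 0 genes for this difference (0% of genes), with 573 at an unadjusted p under 0.05, and SAM was not used for it. Without C57BL6/J TCDD replicate 2 the difference was 4.61 and was called (limma adjusted p = 0.000179), so 1 array decides this result. For Cyp1a2 the difference of TCDD effects was -0.76 (95% confidence interval -1.58 to 0.07) and for Cyp1b1 0.37 (-0.75 to 1.49).

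Averaged over the genotypes, TCDD raised Cyp1a1 by 4.54 (95% confidence interval 3.21 to 5.87, limma adjusted p = 0.0235), and 4 genes or 0.022% were called. That call was under the threshold in 3 of 12 fits with 1 array left out, where the adjusted p ran from 4.1e-07 to 0.132 and the change from 3.78 to 5.02.

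Cyp1a2 was the member that differed between genotypes without TCDD. It read 3352, 3001 and 2572 in hAHR DMSO arrays, against 734.4, 428.7 and 610.7 in C57BL6/J DMSO arrays. Every hAHR array was more than 3 times as bright as any C57BL6/J array. The means were 2975 ± 390.5 in hAHR DMSO and 591 ± 154 in C57BL6/J DMSO arrays (SD, n = 3 each), and the log2 difference of 2.33 (95% confidence interval 1.74 to 2.91, limma adjusted p = 0.00851) equals 5.01-fold. Limma called 2 genes in this comparison, 0.011% of those tested, namely Cyp1a2 as higher and Adi1, an enzyme of methionine salvage, as lower in hAHR. Separation with hAHR higher held for 6.24% of genes.

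The genotype difference of Cyp1a2 was between 2.12 and 2.49 with any 1 array left out. The adjusted p was above 0.05 in 4 of these 12 fits, at 0.0523 and 0.0814 without hAHR DMSO replicate 1 or 2 and at 0.0619 and 0.0688 without C57BL6/J DMSO replicate 2 or 3. Without both Xist-high arrays the difference was 2.12 and the adjusted p 0.0344.

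Most markers of Kupffer cells, the resident macrophages of the liver, were higher in hAHR cells, while their summed signals overlapped between genotypes. Under DMSO 9 of 10 measured markers were higher in hAHR, against 55.06% of all genes. Their median log2 difference was 1.28 against 0.03 over all genes. None passed in limma, and 6 had an unadjusted p under 0.05, against 775 of all 18193 genes. Under TCDD 9 of 10 were also higher in hAHR, with a median of 1.16 against -0.01 over all genes. There none passed in limma and 5 had an unadjusted p under 0.05. The summed signal of the list was 2058 to 4801 in hAHR DMSO and 1887 to 3386 in C57BL6/J DMSO arrays, with Timd4 below 29 in all arrays of both groups and Clec4f, Cd5l, Vsig4, Marco and C1qa also below 29 in all C57BL6/J DMSO arrays. Within hAHR DMSO arrays, C1qa, a complement gene of macrophages, read 4.2, 183.1 and 312.4. The part of other cells in the Cyp1a2 difference was not tested. The labels give no batch or culture date, so an effect of these cannot be told apart from that of genotype.

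TCDD left Cyp1a2 without a called change in either genotype. In hAHR cells it read 3426, 3348 and 2848 under TCDD, within or close to the range under DMSO given above, and the log2 change was 0.11 (95% confidence interval -0.47 to 0.70, limma adjusted p = 1). In C57BL6/J cells it read 752.6, 898.4 and 1799 under TCDD, so that all 3 arrays lay above the DMSO arrays, which held for 6.18% of genes. The lowest of these TCDD arrays exceeded the highest DMSO array, at 734.4, by little. The log2 change in C57BL6/J cells was 0.87 (95% confidence interval 0.29 to 1.45, limma unadjusted p = 0.00669, adjusted p = 0.966) and did not pass. It was 0.50 without C57BL6/J TCDD replicate 3 and between 0.66 and 1.12 with any other array left out. Over same-numbered arrays, TCDD over DMSO was 1.02, 1.12 and 1.11 times in hAHR and 1.03, 2.10 and 2.95 times in C57BL6/J cells.

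Under TCDD, the genotypes were separated for both CYP1A genes. Cyp1a2 was higher in hAHR TCDD than in C57BL6/J TCDD arrays by 1.57 (95% confidence interval 0.98 to 2.15, limma unadjusted p = 5.99e-05, adjusted p = 0.218). Cyp1a1 was higher by 4.22 (95% confidence interval 2.34 to 6.10, unadjusted p = 0.000317, limma adjusted p = 0.507), the largest difference of all genes. Neither passed, limma called 1 gene (0.0055%), Adi1, and complete separation with hAHR higher held for 3.23% of genes. Both results rest on single C57BL6/J TCDD arrays, since Cyp1a1 was called without replicate 2 (5.74, adjusted p = 3.25e-07) and Cyp1a2 without replicate 3 (1.94, adjusted p = 0.00381).

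Under DMSO, Cyp1a1 was also above C57BL6/J in every hAHR array, which held for 6.24% of genes. The Cyp1a1 means were 68.5 in hAHR and 22.6 in C57BL6/J. The log2 difference was 1.13 (95% confidence interval -0.76 to 3.01, limma adjusted p = 0.965) and did not pass, with the C57BL6/J signals in the silent range. From the 6 DMSO arrays alone the interval was 0.62 to 1.63 (limma unadjusted p = 0.00069, adjusted p = 0.857), which did not pass either. Averaged over treatments, Cyp1a2 was higher in hAHR by 1.95 (95% confidence interval 1.53 to 2.36, limma adjusted p = 0.00122), 1 of 6 genes called (0.033%), and this call held in 12 of 12 fits with 1 array left out. The corresponding values were 2.67 for Cyp1a1 (standard error 0.62, adjusted p = 0.367) and 0.16 for Cyp1b1 (-0.40 to 0.72, adjusted p = 0.983).

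In the order of group means, Cyp1a1 ran from hAHR TCDD through C57BL6/J TCDD and hAHR DMSO to C57BL6/J DMSO. The middle groups overlapped, since hAHR DMSO arrays reached 81.9 and C57BL6/J TCDD arrays began at 64.9. Cyp1a2 ran in the order hAHR TCDD, hAHR DMSO, C57BL6/J TCDD and C57BL6/J DMSO, and its first 2 groups overlapped.

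**Figure D3:**
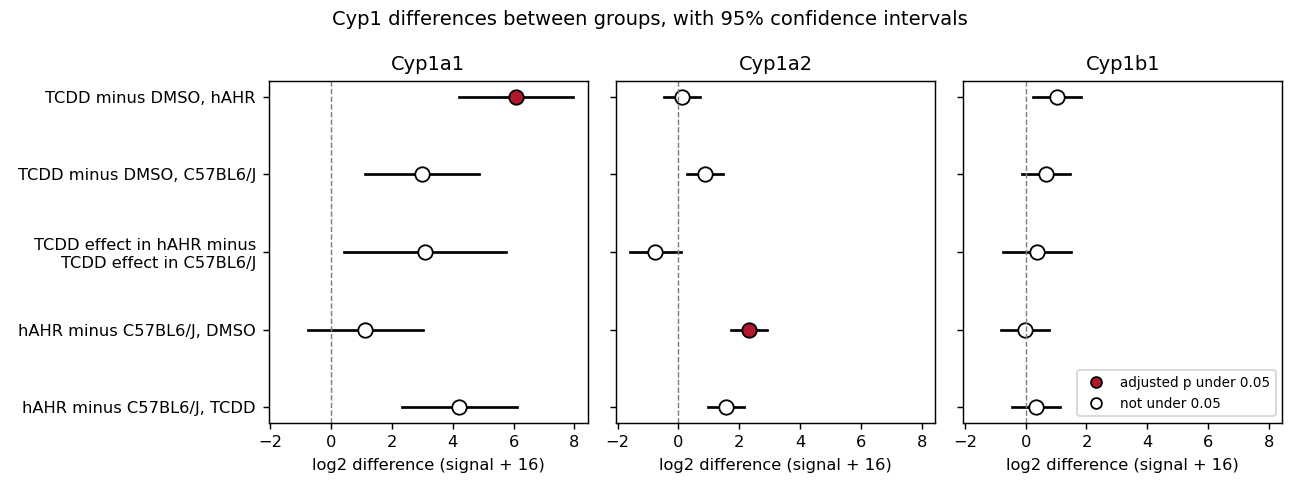
Points are log2 differences of signal plus 16 from the limma fit and lines are 95% confidence intervals, for 5 comparisons (rows) of each Cyp1 gene (panels). Filled points have an adjusted p under 0.05, which holds for the TCDD effect on Cyp1a1 in hAHR cells and for the DMSO level of Cyp1a2 in hAHR against C57BL6/J cells.

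Cyp1b1 gave low signals that did not pass any test. Its brightest probe set read 44.1, 3.2 and 35.5 in hAHR TCDD arrays, against 3.6, 4.0 and 2.0 in hAHR DMSO arrays. Only hAHR TCDD replicates 1 and 3 exceeded 29.3, the highest signal of a silent Xist probe set, and hAHR TCDD replicate 2 lay among the DMSO arrays. The log2 change was 1.03 (95% confidence interval 0.23 to 1.82, limma unadjusted p = 0.0150, adjusted p = 1). In C57BL6/J cells the same probe set read 20.7, 23.3 and 4.11 under TCDD, against 3.3, 6.6 and 1.0 under DMSO. Here replicates 1 and 2 lay above the DMSO arrays and replicate 3 among them, and the log2 change was 0.66 (95% confidence interval -0.13 to 1.45, limma adjusted p = 0.966). Averaged over genotypes the change was 0.84 (95% confidence interval 0.28 to 1.40, limma unadjusted p = 0.00632, adjusted p = 0.997). The size depended on the processing. Averaged over genotypes it was 2.33 without an offset, 0.40 with an offset of 50 and 0.36 with the mean over probe sets, and in hAHR cells these settings gave 2.48, 0.50 and 0.37. None of them gave a call. With 1 array left out, the change ran from 0.71 to 1.54 in hAHR and from 0.48 to 0.96 in C57BL6/J cells.

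The other 2 Cyp1b1 probe sets did not follow the first. In hAHR cells their log2 changes with TCDD were 0.32 and -0.24, and in C57BL6/J cells 0.07 and 0.30, with signals between 0.87 and 22.4 over all arrays, inside the silent range. Between genotypes, Cyp1b1 differed by 0.35 under TCDD (95% confidence interval -0.45 to 1.14) and by -0.02 under DMSO (-0.81 to 0.77), and the second of these changed sign with some settings.

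The members' TCDD responses were compared with each other as changes within arrays, by exact two-sided permutation of the treatment labels within genotype. Over both genotypes, the response of Cyp1a1 exceeded that of Cyp1b1 by 3.70 on the log2 scale (exact permutation p = 0.005, the smallest that 400 relabellings can give, adjusted p = 0.015 over the 3 pairs). Without an offset this excess was 2.675 (exact permutation p = 0.025). In C57BL6/J cells alone it was 2.339 with the offset (exact permutation p = 0.1) and 1.44 without (exact permutation p = 0.5). With the offset, this C57BL6/J excess was 0.99 without C57BL6/J TCDD replicate 2 and 2.995 without replicate 3. Over both genotypes, the response of Cyp1a1 exceeded that of Cyp1a2 by 4.05 (exact permutation p = 0.02, adjusted p = 0.03). The responses of Cyp1a2 and Cyp1b1 differed by -0.35 (exact permutation p = 0.49), by -1.83 without an offset (exact permutation p = 0.085) and by 0.0768 with an offset of 50 (exact permutation p = 0.865), so neither size nor sign is settled. Within a genotype 3 arrays against 3 cannot give p under 0.1. There, Cyp1a1 exceeded Cyp1a2 by 5.97 in hAHR cells (exact permutation p = 0.1) and by 2.13 in C57BL6/J cells (exact permutation p = 0.4). The second value was 0.48 without C57BL6/J TCDD replicate 2 and 3.46 without replicate 3. With same-numbered arrays kept as pairs within genotype, the difference between Cyp1a1 and Cyp1a2 had p = 0.0625 by exact permutation. For Cyp1a1 and Cyp1b1 the paired value was p = 0.03125 by exact permutation, the smallest that 64 relabellings can give. These paired values are not adjusted over the 3 pairs, so both differences are less firm where pairing is kept.

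The TCDD arrays can be read one by one against the mean of the DMSO arrays of their genotype. In C57BL6/J TCDD arrays, Cyp1a1 and Nqo1, a quinone reductase and AHR target, were both highest in replicate 2 and lowest in replicate 3. Nqo1 read 116.8, 153.5 and 66.0 in them. Cyp1a2 had its highest C57BL6/J TCDD signal in replicate 3. The Cyp1b1 signals of these arrays lay in the silent range, so their order is not read. In hAHR TCDD arrays, replicate 2 was lowest for Cyp1a1, while Nqo1, at 136, 139.8 and 94.2, was lowest in replicate 3.

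Tiparp, an ADP-ribosyltransferase induced by AHR, varied far less than Cyp1a1. It read 3538, 3609 and 3479 in hAHR TCDD arrays, against 1327, 1403 and 1342 in hAHR DMSO arrays. In C57BL6/J cells it read 2575, 3324 and 2534 under TCDD, against 1402, 910.9 and 1098 under DMSO, again with TCDD replicate 2 highest. Tiparp was called in both genotypes, with log2 changes of 1.37 in hAHR and 1.30 in C57BL6/J cells (limma adjusted p = 0.00539 and 0.0193). Over the C57BL6/J DMSO mean, Tiparp stood at 1.19 and 1.17 in C57BL6/J TCDD replicates 1 and 3. Cyp1a1 stood at 1.87 and 1.07 in these arrays.

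**Figure D4:**
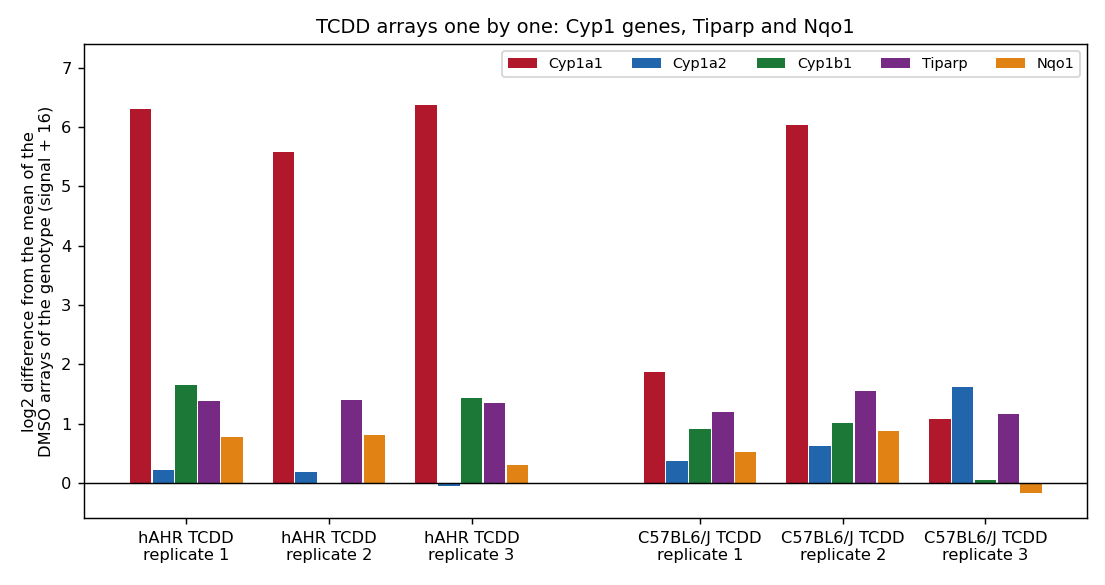
Bars give, for each of the 6 TCDD arrays, the log2 difference of signal plus 16 from the mean of the DMSO arrays of the same genotype, for the Cyp1 genes, Tiparp and Nqo1. Cyp1a1 lies between 5.58 and 6.37 in the hAHR arrays and at 1.87, 6.04 and 1.07 in C57BL6/J replicates 1, 2 and 3, whereas Tiparp lies between 1.17 and 1.56 in all 6.

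The genes whose log2 values over the 12 arrays were most like those of each member were listed among 8728 genes with a mean signal of at least 50. These correlations describe 12 arrays that share 4 group levels, and the TCDD contrast alone gives a high value. For Cyp1a1 the closest genes were Wdfy2 (r = 0.92), Edc3, a factor of mRNA decapping (0.91), the GTPase gene Rab30 (0.91), Rnf39 (0.90) and Zfp36l1, an mRNA decay factor (0.90). For Cyp1a2 they were Uhrf2 (0.93), Slc46a3 (0.92), Pgd, an enzyme of the pentose phosphate pathway (0.89), Rabl6 (0.88) and the zinc transporter gene Slc30a5 (0.88). For Cyp1b1 they were Eya3 (0.90), Zadh2 (0.86), Tns3 (0.85), Wdr91 (0.84) and Rnf217 (0.83). Cyp1b1 exceeded the silent range only in hAHR TCDD replicates 1 and 3, so its likeness rests on few arrays. By ranks (Spearman) the same 5 genes stood at 0.45, 0.62, 0.66, 0.83 and 0.73. Ranks also gave lower values for Zfp36l1 with Cyp1a1 (0.60) and Uhrf2 with Cyp1a2 (0.65). Between members, r was 0.75 for Cyp1a1 and Cyp1b1, 0.50 for Cyp1a1 and Cyp1a2, and 0.14 for Cyp1a2 and Cyp1b1. By ranks (Spearman) these pairs stood at 0.65, 0.68 and 0.20, so which member is more like Cyp1a1 is not settled.

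Rab30 was the only one of these 15 genes that limma called in a TCDD comparison. Over all genes, 0.022% were called for TCDD in hAHR cells. The 15 genes were picked by likeness over these same arrays, so their TCDD changes are no separate support. Rab30 read 1307, 1594 and 1722 in hAHR TCDD arrays, against 412.6, 501.3 and 547.9 in hAHR DMSO arrays (log2 change 1.63, limma adjusted p = 0.0427). In C57BL6/J cells it read 990, 1334 and 706.7 under TCDD, against 414.3, 642.4 and 371.9 under DMSO (log2 change 1.05, limma adjusted p = 0.966), with replicate 2 highest and replicate 3 lowest under both treatments. Among the genes like Cyp1a2, Slc46a3 averaged 184.4 ± 10.5 in hAHR DMSO and 118 ± 10.0 in C57BL6/J DMSO arrays (SD, n = 3 each), a log2 difference of 0.58 (limma adjusted p = 0.965).

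Edc3 is also the next gene after Cyp1a1 on chromosome 9. It read 233, 222 and 209.4 in hAHR TCDD arrays, against 143.8, 154.7 and 139.2 in hAHR DMSO arrays. In C57BL6/J cells it read 163.7, 241.1 and 187.9 under TCDD, against 125.9, 132.1 and 135 under DMSO. All TCDD arrays were above all DMSO arrays in each genotype, which held for 3.35% of genes in hAHR and 6.18% in C57BL6/J cells. The log2 changes were 0.55 in hAHR and 0.52 in C57BL6/J cells, and the change averaged over genotypes, 0.54, did not pass (limma adjusted p = 0.617).

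The other measured neighbours of the Cyp1a pair changed little. With TCDD, Clk3, a kinase gene, stood at 0.23 in hAHR and 0.28 in C57BL6/J cells, Csk, the kinase that restrains Src, at -0.07 and -0.13, and Lman1l, Cplx3 and Arid3b between -0.37 and 0.24 over both genotypes. Between genotypes under DMSO, the 6 neighbours ranged from -0.33 to 0.47 while Cyp1a2 stood at 2.33. None was called in either comparison. Around Cyp1b1 on chromosome 17, the 6 measured neighbours (Rmdn2, 4930429F11Rik, Cdc42ep3, Hnrnpll, 4933407O12Rik and Galm) ranged from -0.21 to 0.40 with TCDD, and none was called.

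**Figure D5:**
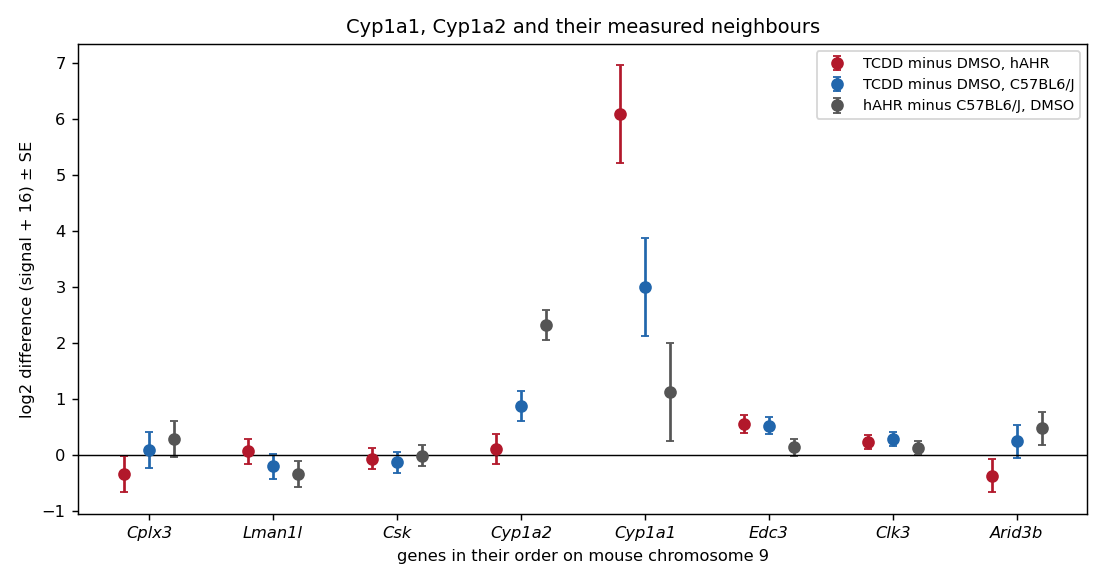
Points are log2 differences of signal plus 16 with standard errors for Cyp1a2, Cyp1a1 and the 3 measured genes on each side, in their order on mouse chromosome 9 and not to scale. Cyp1a1 stands at 6.09 for TCDD in hAHR cells and Cyp1a2 at 2.33 for hAHR against C57BL6/J under DMSO, while the neighbours lie between -0.37 and 0.55.

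The rest of the pathway gave few calls. Of the 16 measured other AHR targets, 9 were higher with TCDD in hAHR cells (median log2 change 0.17, against -0.01 over all genes) and 14 in C57BL6/J cells (median 0.27, against 0.03), and in each genotype Tiparp alone passed. In hAHR cells Nfe2l2, the gene of the antioxidant regulator NRF2, had a log2 change of 0.60 and Xdh, the xanthine dehydrogenase, 0.57, neither of which passed. Of 13 measured genes of the receptor complex, none passed with TCDD, with Ahr at -0.04 and Arnt at 0.01 in hAHR cells and -0.23 and -0.06 in C57BL6/J cells. Ahrr, the repressor of the receptor, stayed at or below 12.1 in all arrays, inside the silent range.

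The genes that serve a P450 enzyme also gave no call in any comparison. The 9 measured redox partners had a median TCDD change of 0.06 in hAHR and 0.08 in C57BL6/J cells. Of the 10 measured genes of haem synthesis, the largest TCDD change was that of Cpox, the coproporphyrinogen oxidase, at 0.66 in hAHR and 0.49 in C57BL6/J cells (limma adjusted p = 0.997 for the mean of both). Of 13 measured conjugating and detoxifying genes downstream of CYP1 oxidation, Nqo1 stood highest in hAHR cells at 0.62, and the list's median was 0.00 there and 0.13 in C57BL6/J cells.

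The genotype difference of Cyp1a2 under DMSO was not matched by calls in related liver genes. Among 21 measured other xenobiotic P450 genes, 15 were higher in hAHR (median 0.25, against 0.03 over all genes) and 0 passed in limma, with 1 at an unadjusted p under 0.05, Cyp2c37, which was lower at -0.64. Cyp1a2 is a gene of the pericentral zone of the liver lobule. Of the 15 measured genes of that zone, 6 were higher and 9 lower in hAHR, with a median of -0.01, and Oat, an ornithine aminotransferase, stood lowest at -0.52. Of the 12 measured periportal genes, 7 were higher, with a median of 0.11, and Hsd17b6, a steroid dehydrogenase, stood highest at 1.03. None of either zone passed. The 15 measured hepatocyte transcription factors had median TCDD changes of 0.06 in hAHR and 0.07 in C57BL6/J cells, and none was called in any comparison.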

How the data were processed

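RNA of 12 cultures was hybridised to 1-colour Affymetrix arrays. The deposited values are linear intensities in 1 table. The authors used GCOS on the scans, then PLIER-MM normalization (Affymetrix Expression Console 1.1), and tested groups by SAM, per the design text and the submitters' processing notes. Nevertheless, the mean over probe sets trimmed by 2% at each end was 150 in 9 arrays and 500 in the 3 C57BL6/J TCDD arrays, which is how global scaling looks and not PLIER, so the arrays were rescaled to 150. Of 45101 probe sets, 64 controls were removed. Symbols came from the GEO platform annotation, which named 1 gene for 34945 probe sets, several for 932 and none for 9160. A gene was represented by its brightest probe set. limma 3.58.1 in R 4.3.3 fitted 4 group means to log2(intensity + 16) over all 12 arrays (8 residual degrees of freedom, eBayes with intensity trend, two-sided). Benjamini-Hochberg adjustment ran over 18193 genes, with a threshold of 0.05. The fit was tested on simulated data.

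Named genes were the members, Tiparp, Nqo1, Ahr, Arnt and Ahrr, up to 4 genes per list with the smallest p and all called, the 5 most correlated genes per member, and 3 neighbours on each side. The members and lists were chosen with earlier results of these data known. Genes singled out beyond this rule (C1qa for its values by array, and single list members at an extreme) were chosen after their values were seen. Promoters and gene order came from RefSeq tables on GRCm38.p6, in which 3 of 3 members matched. Arrays hold no counts, so their number limits precision, and 0 pairs were identical. Same-numbered DMSO and TCDD arrays of hAHR cells deviated together (r = 0.24, 0.27 and 0.19 across genes), which met the rule for pairing, and those of C57BL6/J cells did not all do so (0.25, 0.51 and 0.05). The pairing comes from the values. The design text gives 1 array per mouse, and why same-numbered arrays deviated together was not tested. The main fit held no replicate term. Alternatives covered the offset, scaling, filter, variance model, probe sets, samples, pairing, SAM and each array left out. Plots used matplotlib 3.10.9 under Python 3.11.15.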

Additional observations from a re-analysis of the deposited data

How the results depend on the processing

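Of 668 comparisons of a value with its alternatives, 615 kept direction and side of the threshold, 33 fell below it, 10 passed it and 10 changed sign. The cause was not tested except where 1 array was removed. The Cyp1a1 change in hAHR cells was no longer called after quantile normalization (6.07, adjusted p = 0.0501), without the intensity trend (6.09, 0.0777), with the mean over probe sets (6.09, 0.123), with every probe set tested (6.09, 0.0584) and with a replicate block over all arrays (6.09, 0.115), but was called with the replicate block within genotype (adjusted p = 0.0362). Averaged over genotypes, 4.54 was not called without the trend (0.0575), with the mean over probe sets (0.0997) or with the replicate block (0.0709), and was called with the block within genotype (0.0192). With array weights, calls were gained for Cyp1a1 under TCDD (4.92) and averaged over treatments (3.03) and for Cyp1a2 under TCDD (1.90), each hAHR against C57BL6/J. Without both C57BL6/J replicate 2 arrays, calls were gained for the Cyp1a1 difference of TCDD effects (4.59) and for hAHR against C57BL6/J under TCDD (5.74) and averaged (3.45), while Cyp1a1 against Cyp1a2 responses stood at 3.35 (exact permutation p = 0.05). With the replicate block within genotype, that pair stood at 4.05 (p = 0.0625, exact permutation). Neither block changed another call of a member. For TCDD in C57BL6/J, the replicate block over all arrays left 0 genes called and the block within genotype 1, as without a block.

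Values near 0 changed sign. Cyp1b1 in hAHR against C57BL6/J under DMSO stood at 0.134 without an offset, 0.0092 with array weights, 0.0771 with the mean over probe sets and 0.0826 without both replicate 2 arrays. The Cyp1a2 minus Cyp1b1 response in C57BL6/J went from 0.21 to -1.28 without an offset. Over both genotypes it went from -0.35 to 0.0768 with an offset of 50. Without an offset it kept its sign in hAHR (-0.91 to -2.37) and over both genotypes (-0.35 to -1.83).

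With 1 array left out, Cyp1a1 spanned 5.94 to 6.34 for TCDD in hAHR, 2.13 to 4.61 for the difference, 3.26 to 5.74 for hAHR against C57BL6/J under TCDD, 3.78 to 5.02 for TCDD averaged and 2.19 to 3.43 for genotype averaged. Cyp1a2 spanned 2.12 to 2.49 under DMSO and 1.32 to 1.94 under TCDD for hAHR against C57BL6/J, 0.50 to 1.12 for TCDD in C57BL6/J and -1.01 to -0.39 for the difference. Cyp1b1 spanned -0.12 to 0.0826 for hAHR against C57BL6/J under DMSO and 0.0575 to 0.881 for the difference, and Cyp1a2 minus Cyp1b1 in C57BL6/J -0.46 to 0.59. Genes called for TCDD in hAHR ranged from 0 to 6. Signals in the silent range, as of Cyp1b1 and of Cyp1a1 in C57BL6/J DMSO, limit any fold against them.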
